A study of Arabidopsis thaliana with 12 samples.

Results

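A set of 10 genes of flavonoid and anthocyanin synthesis was followed through an RNA-seq series of Arabidopsis thaliana seedlings. They were chosen by locus identifier, 10 of the 33602 loci counted, and all 10 passed the filter on low counts that left 19924 loci for testing. They comprise the early enzymes CHS, CHI, F3H and F3'H, the flavonol enzyme FLS1, the late anthocyanin enzymes DFR, LDOX and UF3GT, and the regulators PAP1 and MYB12.

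Flavonoids are made from phenylalanine. Chalcone synthase (CHS) and chalcone isomerase (CHI) build the flavonoid skeleton, and flavanone 3-hydroxylase (F3H) and flavonoid 3'-hydroxylase (F3'H) oxidise it to dihydroflavonols. Flavonol synthase (FLS1) turns these into flavonols, while dihydroflavonol reductase (DFR) and leucoanthocyanidin dioxygenase (LDOX) lead to anthocyanins, the red and purple pigments of stressed or strongly lit seedlings. In Arabidopsis the early enzymes and FLS1 are activated by MYB12 and its relatives, and the late ones by complexes that contain PAP1.

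Each of 4 genotypes in the Col-0 background was represented by 3 libraries: wild-type Col-0, DPB2oe1.11.5 and DPB2oe12.1.5 as lines that overexpress DPB2, a regulatory subunit of DNA polymerase epsilon, and the mutant abo4-1, changed in POL2A, which encodes the catalytic subunit of the same polymerase. All were untreated seedlings of stage 1.02 on the Boyes scale, kept under 16 h of light at 20 °C and 65% humidity on medium of 0.5x MS. The promoter that drives DPB2 is not given in the sources used here, and sample titles name DPB2oe1.11.5 as 1.11.2. The labels do not say whether the 3 seedling samples of a genotype were grown separately or at which hour they were harvested, so p-values measure only the spread between these libraries.

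Libraries held 10902547 to 29456111 counted reads. DPB2 measured 1.76 to 4.14 CPM (counts per 1000000 counted reads, scaled by TMM) in wild type, while DPB2oe1.11.5 held 106 to 118 CPM and DPB2oe12.1.5 109.8 to 117 CPM. POL2A was described as knocked out in abo4-1, yet its transcript measured 24.1 to 26.4 CPM there and 15.7 to 17.3 CPM in Col-0. All 5 green-tissue markers and all 5 root markers listed were detected in every library, from 17377 to 49506 CPM for LHCB1.3 and from 0.718 to 5.14 CPM for the root hair gene EXPA7. In such whole-seedling RNA, fewer cells of a type and less RNA per cell cannot be told apart. The libraries differed sharply in clock transcripts. LHY, a morning clock gene, measured 173 CPM in abo4-1 replicate 2, 196 CPM in replicate 2 and 202 CPM in replicate 1 of DPB2oe12.1.5, and 217 CPM in replicate 2 of DPB2oe1.11.5, against 3.97 to 48.0 CPM in the other 8 libraries. No Col-0 library is among these 4, so genotype and this difference between libraries overlap in part.

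The regions just upstream of the genes are shown for 6 of the 10, because members of the early and the late set behaved differently across libraries. Each sequence is the 250 bases before the annotated start in the TAIR10.1 assembly of RefSeq, written 5′ to 3′ on the gene's own strand. Capitals mark CACGTG, the G-box bound by bZIP and bHLH factors such as HY5, and AAATATCT. The latter is a short form of the evening element, which is bound by clock MYB factors such as LHY. The windows are chr5:4488226-4488475 on the plus strand for CHS, chr3:19024942-19025191 on the plus strand for F3H, chr5:2803583-2803832 on the plus strand for FLS1, chr5:17166033-17166282 on the minus strand for DFR, chr5:21938397-21938646 on the minus strand for UF3GT, and chr1:21235293-21235542 on the minus strand for PAP1.
CHS: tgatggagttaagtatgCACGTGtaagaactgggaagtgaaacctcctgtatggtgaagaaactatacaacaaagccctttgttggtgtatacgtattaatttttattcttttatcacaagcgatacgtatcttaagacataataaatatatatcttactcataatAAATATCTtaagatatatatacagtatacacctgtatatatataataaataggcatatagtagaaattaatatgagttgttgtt
F3H: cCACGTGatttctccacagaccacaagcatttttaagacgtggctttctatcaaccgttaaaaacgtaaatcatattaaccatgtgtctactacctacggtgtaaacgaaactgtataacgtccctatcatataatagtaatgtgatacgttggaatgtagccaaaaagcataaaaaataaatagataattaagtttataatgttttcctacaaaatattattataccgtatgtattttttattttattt
FLS1: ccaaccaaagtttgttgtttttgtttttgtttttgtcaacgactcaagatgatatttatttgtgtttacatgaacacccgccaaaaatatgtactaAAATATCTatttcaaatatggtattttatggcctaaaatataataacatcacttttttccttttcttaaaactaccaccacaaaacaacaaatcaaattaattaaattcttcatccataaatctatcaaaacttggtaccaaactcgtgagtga
DFR: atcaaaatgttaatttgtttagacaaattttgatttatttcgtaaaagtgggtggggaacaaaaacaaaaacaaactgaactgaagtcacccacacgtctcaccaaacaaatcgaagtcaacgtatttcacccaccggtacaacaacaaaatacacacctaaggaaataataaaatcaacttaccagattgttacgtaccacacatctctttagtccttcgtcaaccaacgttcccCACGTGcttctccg
UF3GT: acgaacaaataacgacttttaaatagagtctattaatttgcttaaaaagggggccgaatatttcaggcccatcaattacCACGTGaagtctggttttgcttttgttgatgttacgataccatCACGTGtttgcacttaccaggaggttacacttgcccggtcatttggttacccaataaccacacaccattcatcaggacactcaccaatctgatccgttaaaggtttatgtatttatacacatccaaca
PAP1: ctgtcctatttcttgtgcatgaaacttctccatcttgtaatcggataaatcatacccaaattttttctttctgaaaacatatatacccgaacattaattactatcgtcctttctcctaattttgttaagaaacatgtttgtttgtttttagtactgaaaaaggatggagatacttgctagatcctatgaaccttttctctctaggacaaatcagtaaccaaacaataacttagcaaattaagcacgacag
The G-box lay 233 to 228 bases before the start of CHS, 249 to 244 bases before that of F3H and 14 to 9 bases before that of DFR. UF3GT held it at 171 to 166 and again at 128 to 123 bases. With MYB12, at 118 to 113 bases, 5 of the 10 windows held a G-box, searched on both strands, against 6.49% of 27437 protein-coding genes. These 5 genes include early enzymes, late enzymes and a regulator. The short form AAATATCT was found in the windows of CHS and FLS1, against 4.79% of all genes. The wider CANNTG, which includes every CACGTG, was in 7 of 10 windows against 55.3% of all, and ANCNNCC, a loose form of MYB sites, in 9 of 10 against 48.8%. ACCTACC and ACCAACC, stricter forms of MYB sites, were in 0 of the 10 and in 1.16% and 2.69% of all windows. These matches describe letters in 250 bases and do not show binding.

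Per length, CHS was by far the most abundant of the set. In Col-0 it measured 148 ± 18.3 CPM per kb (SD, n = 3), followed by DFR at 31.1 ± 11.7, F3H at 22.6 ± 0.986, CHI at 19.6 ± 1.62, LDOX at 13.9 ± 7.19, FLS1 at 13.1 ± 2.25 and UF3GT at 7.61 ± 4.31 CPM per kb. The regulators and F3'H were lowest, with PAP1 at 2.67 ± 1.90, F3'H at 2.48 ± 0.638 and MYB12 at 0.701 ± 0.417 CPM per kb. Among neighbours in this order, CHS and DFR, F3H and CHI, and F3'H and MYB12 did not overlap over the Col-0 libraries, while the other neighbours did. PAP1 and MYB12 rest on few reads, 5 to 126 and 10 to 31 per library.

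**Figure D1:**
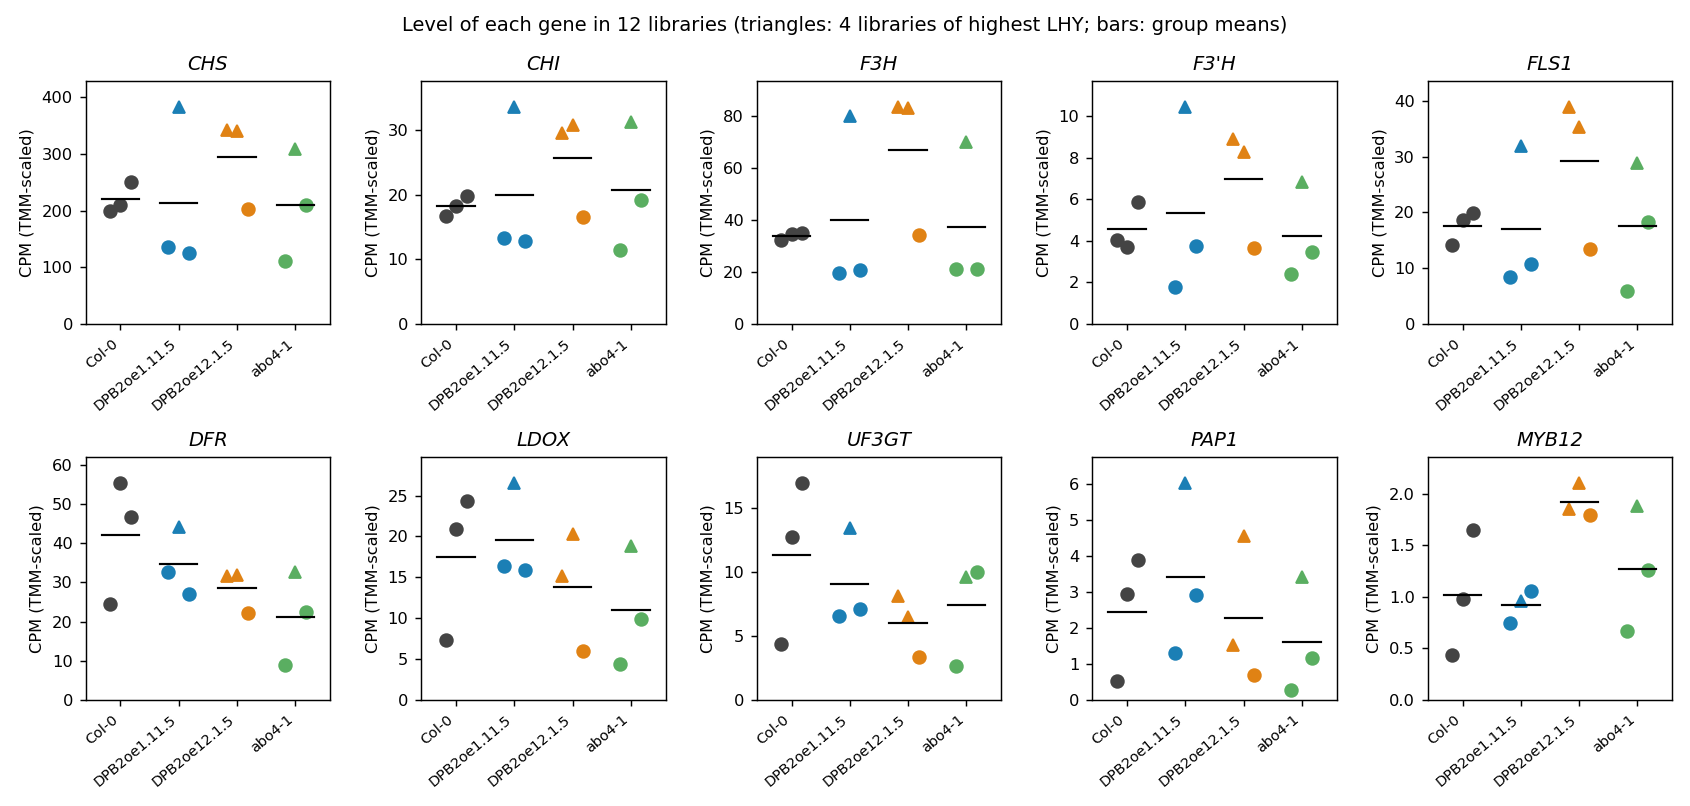
TMM-scaled CPM (y axis, linear from 0) of the 10 genes in each of the 12 libraries, by genotype; bars are group means of 3 libraries, and triangles mark the 4 libraries of highest LHY. For CHS, CHI, F3H, F3'H and FLS1 the triangles lie above all circles, and for F3H they run from 70.1 to 83.5 CPM against 19.7 to 35.2 CPM.

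The early enzymes varied more between libraries of a mutant genotype than between genotypes. CHS (AT5G13930, chromosome 5, 4488476 to 4490264 in TAIR10.1, as for the positions that follow), the entry enzyme of the pathway, measured 199, 211 and 251 CPM across Col-0 replicates 1 to 3, 135, 382 and 125 across DPB2oe1.11.5, 341, 340.4 and 202 across DPB2oe12.1.5, and 112, 309 and 210.4 across abo4-1. Its 4 highest values, 309 to 382 CPM, are the 4 libraries of highest LHY, and all groups overlapped. The log2 fold changes against Col-0 were -0.04 ± 0.46 (SE; edgeR adjusted p = 0.980) for DPB2oe1.11.5, 0.42 ± 0.47 (adjusted p = 0.671) for DPB2oe12.1.5 and -0.07 ± 0.47 (adjusted p = 0.988) for abo4-1. The 95% interval of the first ran from -1.08 to 0.99, so a change of nearly 1 log2 unit either way was within it.

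F3H (AT3G51240, chromosome 3, 19025192 to 19026872), which hydroxylates flavanones, showed the sharpest contrast. It measured 32.4, 34.6 and 35.2 CPM across Col-0, 19.7, 80.0 and 20.7 across DPB2oe1.11.5, 83.5, 83.1 and 34.4 across DPB2oe12.1.5, and 21.0, 70.1 and 21.1 across abo4-1. Col-0 was tight, while DPB2oe1.11.5 and abo4-1 each had 2 libraries below all of Col-0 and 1 far above it. The group means hid this, at 34.1 ± 1.49, 40.1 ± 34.5, 67.0 ± 28.3 and 37.4 ± 28.3 CPM (SD, n = 3) in the same order. Against Col-0 the log2 fold changes were 0.24 ± 0.65, 0.98 ± 0.66 and 0.14 ± 0.65 (adjusted p = 0.903, 0.473 and 0.982).

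CHI (AT3G55120, chromosome 3, 20430059 to 20431597), which closes the flavanone ring, followed CHS most closely of all pairs in the set. It measured 16.7, 18.3 and 19.7 CPM across Col-0, 13.4, 33.6 and 12.8 across DPB2oe1.11.5, 29.6, 30.8 and 16.5 across DPB2oe12.1.5, and 11.4, 31.3 and 19.3 across abo4-1. F3'H (AT5G07990, chromosome 5, 2560328 to 2563137), which adds the second hydroxyl of the B ring, measured 4.06, 3.71 and 5.89 CPM across Col-0, 1.79, 10.4 and 3.77 across DPB2oe1.11.5, 8.91, 8.28 and 3.66 across DPB2oe12.1.5, and 2.39, 6.83 and 3.48 across abo4-1. In both genes the same 4 libraries were highest, and no mutant group stood clear of Col-0.

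FLS1 (AT5G08640, chromosome 5, 2803833 to 2805606), the branch enzyme towards flavonols, kept to the pattern of the early enzymes. It measured 14.1, 18.6 and 19.8 CPM across Col-0, 8.45, 31.8 and 10.7 across DPB2oe1.11.5, 38.9, 35.4 and 13.5 across DPB2oe12.1.5, and 5.83, 28.9 and 18.2 across abo4-1. The log2 fold change in DPB2oe12.1.5, 0.74 ± 0.65 with a 95% interval of -0.72 to 2.21, did not pass (adjusted p = 0.581).

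The late enzymes behaved otherwise. DFR (AT5G42800, chromosome 5, 17164093 to 17166032), the branch enzyme towards anthocyanins, measured 24.6, 55.5 and 46.7 CPM across Col-0, 32.6, 44.3 and 26.9 across DPB2oe1.11.5, 31.6, 31.9 and 22.1 across DPB2oe12.1.5, and 8.94, 32.6 and 22.3 across abo4-1. Its 2 highest values were Col-0 libraries, and Col-0 replicate 1 lay among the mutants. The mean in abo4-1, 21.3 ± 11.9 CPM, was below the 42.3 ± 15.9 CPM of Col-0, a log2 fold change of -0.99 ± 0.43 with a 95% interval of -1.95 to -0.03. It did not pass the test (adjusted p = 0.601), and 1 Col-0 library overlapped the abo4-1 values.

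LDOX (AT4G22880, chromosome 4, 12004726 to 12006209), which forms the coloured anthocyanidin, measured 7.28, 20.9 and 24.4 CPM across Col-0, 16.3, 26.6 and 15.9 across DPB2oe1.11.5, 15.1, 20.2 and 6.0 across DPB2oe12.1.5, and 4.39, 18.9 and 9.87 across abo4-1. UF3GT (AT5G54060, chromosome 5, 21936746 to 21938396), which adds xylose to anthocyanins, measured 4.34, 12.7 and 17.0 CPM across Col-0, 6.56, 13.4 and 7.10 across DPB2oe1.11.5, 8.11, 6.45 and 3.35 across DPB2oe12.1.5, and 2.61, 9.61 and 9.97 across abo4-1. For both, Col-0 replicate 1 was low with abo4-1 replicate 1 and DPB2oe12.1.5 replicate 3, and all groups overlapped.

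PAP1 (AT1G56650, chromosome 1, 21233555 to 21235292), the MYB activator of the anthocyanin enzymes, had the widest range of the set. It measured 0.507, 2.93 and 3.87 CPM across Col-0, 1.29, 6.03 and 2.90 across DPB2oe1.11.5, 1.53, 4.55 and 0.701 across DPB2oe12.1.5, and 0.278, 3.41 and 1.16 across abo4-1. The lowest 3 libraries are again abo4-1 replicate 1, Col-0 replicate 1 and DPB2oe12.1.5 replicate 3, with 5, 14 and 9 reads. Its relatives PAP2, MYB113 and MYB114 did not pass the filter, and none exceeded 0.212 CPM in any library. Reads that mapped to more than 1 place were removed, which lowers near-identical copies, so levels within this family are less certain.

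MYB12 (AT2G47460, chromosome 2, 19476326 to 19479597), the flavonol activator, measured 0.434, 0.977 and 1.65 CPM across Col-0, 0.745, 0.957 and 1.05 across DPB2oe1.11.5, 1.85, 2.105 and 1.79 across DPB2oe12.1.5, and 0.666, 1.88 and 1.26 across abo4-1. All 3 DPB2oe12.1.5 libraries lay above all 3 of Col-0, where 22.8% of all genes tested did not overlap. No other member was separate from Col-0: 0 of 10 in DPB2oe1.11.5 (23% of all genes) and 0 of 10 in abo4-1 (14.5%). The log2 fold change was 0.94 ± 0.47 (95% interval -0.08 to 1.95, adjusted p = 0.337). Between the overexpression lines MYB12 was also separated, by -1.06 ± 0.47 on the log2 scale in DPB2oe1.11.5 against DPB2oe12.1.5 (adjusted p = 0.261), where 21.2% of all genes did not overlap, while against abo4-1 0 of 10 members were separate in DPB2oe1.11.5 (21.9% of all genes) and 0 in DPB2oe12.1.5 (19.2%).

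No member was called in any of the 6 comparisons between genotypes. At an edgeR quasi-likelihood adjusted p under 0.05, 0 of 10 passed in DPB2oe1.11.5 against Col-0, where 0.708% of all genes were called, 0 of 10 in DPB2oe12.1.5 (0.427%) and 0 of 10 in abo4-1 (0.783%). Between mutants, 0 of 10 passed in DPB2oe1.11.5 against DPB2oe12.1.5 (0.0301%), in DPB2oe1.11.5 against abo4-1 (1.64%) and in DPB2oe12.1.5 against abo4-1 (0.713%). A test of any difference among the 4 genotypes called 0 of 10 (2% of all genes), with adjusted p of 0.379 to 0.838. At an unadjusted p under 0.05 the counts were 0, 0 and 1 against Col-0, the last being DFR in abo4-1, with 14.9%, 16.7% and 8.12% of all genes, and DESeq2 also called 0 in each. Between mutants they were 1, 0 and 0, the 1 being MYB12 between the overexpression lines, with 17.9%, 16.4% and 14.9% of all genes, and DESeq2 called 0. The 10 genes had a median log2 fold change of 0.05 for DPB2oe1.11.5, 0.45 for DPB2oe12.1.5 and -0.09 for abo4-1, beside medians of 0.00, -0.00 and 0.00 over all genes; these 3 comparisons share the Col-0 libraries.

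The spread within genotypes was wide for these genes. The pooled standard deviation of log2(CPM + 0.5) within genotypes had a median of 0.78 over the 10 genes, from 0.41 for MYB12 to 1.07 for PAP1, beside 0.25 over all genes tested. MYB12 varied more than 82.0% of all genes, and the other 9 more than 93.9% (CHI) to 99.3% (PAP1) of them.

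Across libraries the 10 genes fell into groups that were noticed after their values were seen. Over the 12 libraries, which share genotype groups and preparation, Pearson's r of log2(CPM + 0.5) had a median of 0.92 (0.90 to 0.98) over the 10 pairs among CHS, CHI, F3H, F3'H and FLS1. Among DFR, LDOX, UF3GT and PAP1 the median of 6 pairs was 0.85 (0.78 to 0.94). Between these sets the median of 20 pairs was 0.57 (0.32 to 0.67). Without the 4 libraries of highest LHY, the 3 medians were 0.75, 0.89 and 0.50. After subtraction of each genotype's mean, the 3 medians over 12 libraries were 0.92, 0.91 and 0.76, so the sets stood less far apart. MYB12 had a median r of 0.59 with the early set and 0.33 with the late set, and the order turned with genotype means subtracted, to 0.52 and 0.82.

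Correlations with LHY were higher in the early set than in the late set. Pearson's r of log2(CPM + 0.5) with LHY was 0.88 for F3H, 0.75 for F3'H, 0.74 for CHI, 0.68 for CHS and 0.63 for FLS1, against 0.03 for DFR, 0.13 for LDOX, -0.11 for UF3GT and 0.25 for PAP1, as a description over 12 libraries. The 4 libraries of highest LHY lay above all other 8 for 5 of the 10 genes, where 5.03% of all genes did so. These 5 are the early enzymes and FLS1, and the ratio of mean CPM was 2.89 for F3H, 2.47 for FLS1, 2.40 for F3'H, 1.95 for CHI and 1.90 for CHS. For DFR and UF3GT it was 1.17 and 1.18, for LDOX 1.54, for MYB12 1.58 and for PAP1 2.27, all with overlap. Inside the mutant genotypes the high-LHY libraries were also higher for late genes. F3H was 3.96-fold higher in the high-LHY library of DPB2oe1.11.5 than in the mean of its other 2. In DPB2oe12.1.5 the mean of 2 high-LHY libraries was 2.42-fold that of the 1 other, replicate 3, where PAP1 had 9 reads. For abo4-1 the 1 high-LHY library was 3.33-fold the mean of the other 2. In the same order PAP1 was higher by 2.88-fold, 4.33-fold and 4.74-fold, LDOX by 1.65-fold, 2.94-fold and 2.65-fold, and DFR by 1.49-fold, 1.43-fold and 2.08-fold. Over the whole series these genes overlapped. Col-0 replicates 2 and 3 reached into the range of the 4 libraries or above it. DPB2oe1.11.5 replicate 1 reached into it for DFR and LDOX, and replicate 3 for LDOX and PAP1. Of the tissue markers, SCR of the root endodermis was 1.76-fold higher in the 4 libraries, above all 8 others, and LHCA1 of the light-harvesting antenna lay below them with a ratio of 0.588. The other 4 green-tissue and 4 root markers overlapped, as did the 4 seed storage genes past the filter. Of these, OLEO1 measured 0.0696 to 5.46 CPM against 0 to 0.777 CPM. Between genotypes, 2 of the 4 seed storage genes were called higher in DPB2oe12.1.5 against Col-0 (edgeR adjusted p under 0.05, 0.427% of all genes called). The median log2 fold change of the 4 was 3.46, at low levels. In DPB2oe1.11.5 and in abo4-1 against Col-0, 0 of the 4 were called (0.708% and 0.783%). The part of these markers in the result was not tested.

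**Figure D2:**
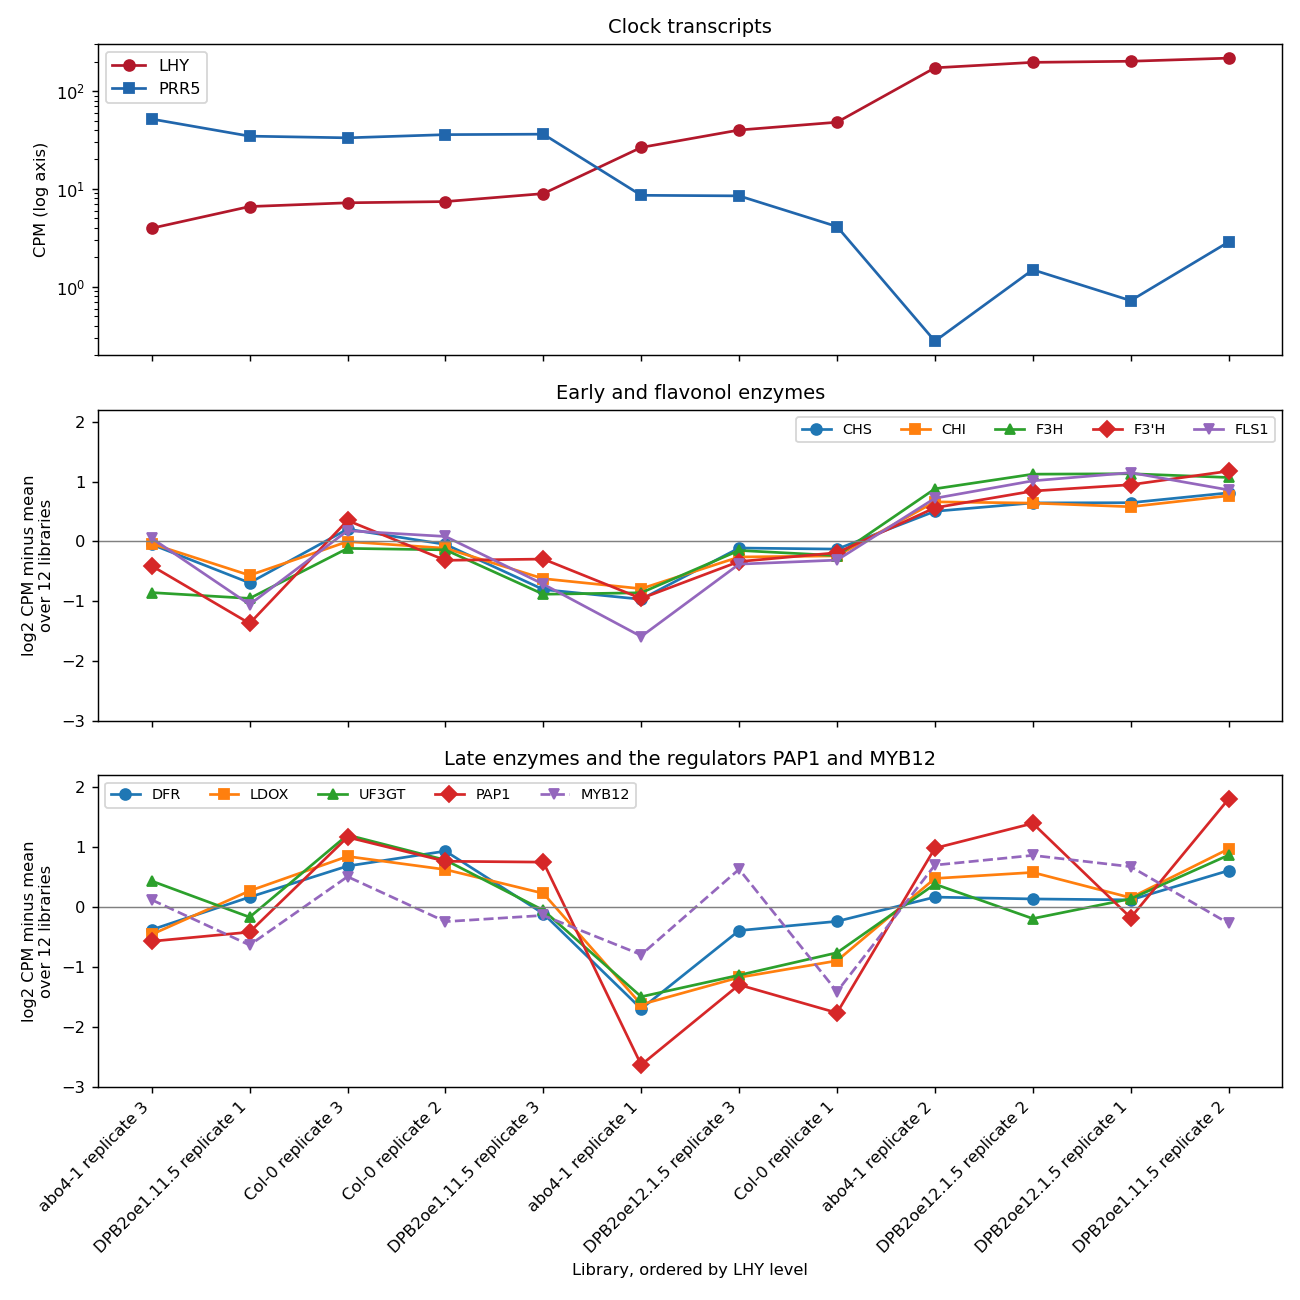
The 12 libraries in order of LHY level (x axis), with LHY and PRR5 in CPM on a log axis (top), and each gene's log2 CPM minus its mean over 12 libraries for the early and flavonol enzymes (middle) and for the late enzymes, PAP1 and MYB12 (bottom). The early enzymes are highest in the 4 libraries at the right, while LDOX, UF3GT and PAP1 are lowest in the 3 libraries of 26.5 to 48.0 CPM LHY.

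Of the late set, 3 genes shared their lowest libraries and DFR did not. LDOX, UF3GT and PAP1 had their 3 lowest values in the 3 libraries of next highest LHY, which were abo4-1 replicate 1, DPB2oe12.1.5 replicate 3 and Col-0 replicate 1 with 26.5, 39.97 and 48.0 CPM of LHY. The evening clock gene PRR5 measured 8.61, 8.49 and 4.13 CPM in them. PAP1 measured at most 0.701 CPM there and at least 1.16 CPM in the other 9 libraries, and LDOX at most 7.28 against at least 9.87 CPM. DFR overlapped, at 8.94 to 24.6 CPM in these 3 and 22.3 to 55.5 CPM in the other 9. CHS, CHI and FLS1 also had their lowest value in abo4-1 replicate 1. Over all genes 1.53% had these 3 libraries below the other 9. Each genotype but DPB2oe1.11.5 contributed 1 of the 3 libraries. The part of the clock state or the harvest hour in these patterns was not tested.

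The balance between branches differed among libraries. Per length, the ratio of FLS1 to DFR was 0.584, 0.341 and 0.433 across Col-0, 0.264, 0.731 and 0.404 across DPB2oe1.11.5, 1.25, 1.13 and 0.620 across DPB2oe12.1.5, and 0.664, 0.903 and 0.828 across abo4-1. All 3 libraries of DPB2oe12.1.5 and of abo4-1 lay above all 3 of Col-0, a ratio of transcripts that was not tested. The margin was narrow, at 0.620 for DPB2oe12.1.5 replicate 3 and 0.664 for abo4-1 replicate 1 against 0.584 for Col-0 replicate 1. These are the 3 libraries of next highest LHY, and Col-0 has no library among those of highest LHY. How many gene pairs separate this way was not counted. Other ratios of early to late genes did not all separate this way: F3H to DFR overlapped for abo4-1 (0.850 to 2.12 against 0.561 to 1.18), and CHS to LDOX, at 8.49 to 23.1 in Col-0, overlapped for both. FLS1 to DFR was above 1 in DPB2oe12.1.5 replicates 1 and 2 alone, which are high in LHY.

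Other genes of the pathway were taken from lists drawn up with earlier results of these data known. Of 53 further genes 43 passed the filter. The edgeR test called 0 of them in DPB2oe1.11.5, DPB2oe12.1.5 and abo4-1 against Col-0, where 0.708%, 0.427% and 0.783% of all genes were called. At an unadjusted p under 0.05 there were 7, 6 and 0 in the same order, beside 14.9%, 16.7% and 8.12% of all genes. They included 5 of 11 repressors in DPB2oe1.11.5 and 4 of 8 phenylpropanoid entry genes in DPB2oe12.1.5. The counts for anthocyanin genes and for activators were 0 in both lines. Of the repressors 5 did not overlap between DPB2oe1.11.5 and Col-0 (23% of all genes). Of the entry genes 5 did not overlap between DPB2oe12.1.5 and Col-0 (22.8%). DESeq2 called 2 of 52 of these genes in DPB2oe12.1.5 against Col-0, and 0 of 52 in DPB2oe1.11.5 and in abo4-1. The share of all genes called by DESeq2 is not given here, so the 2 are not set against it. They were C4H, cinnamate 4-hydroxylase, and PAL2, a phenylalanine ammonia-lyase. Their DESeq2 log2 fold changes were 1.01 ± 0.26 (adjusted p = 0.0111) and 0.94 ± 0.29 (adjusted p = 0.0380). By edgeR these were 0.99 ± 0.24 (adjusted p = 0.0885) and 0.93 ± 0.27 (adjusted p = 0.136).

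In the 4 libraries of highest LHY, 16 of the 43 lay above the other 8 libraries (5.03% of all genes), 2 below (4.76%) and 25 overlapped. Above were 4 of 8 genes of the phenylpropanoid entry (PAL1, C4H, 4CL1, 4CL3), 5 of 7 other core and flavonol genes, 3 of 7 anthocyanin genes, 2 of 9 activators and 2 of 11 repressors. CHIL, an enhancer of chalcone synthesis, was 2.36-fold higher, and the flavonol glycosyltransferases UGT78D1, UGT78D2 and UGT89C1 were 2.03-fold, 2.26-fold and 2.097-fold higher. Among activators HYH, a bZIP factor close to HY5, was 5.28-fold higher, at 17.2 to 25.4 CPM against 2.32 to 6.84 CPM. HY5 itself measured 10.5 to 14.7 CPM against 4.67 to 10.5 CPM and overlapped narrowly. The pair below were BBX22, an activator of anthocyanin genes, at 6.66 to 9.68 CPM against 28.5 to 48.4 CPM, and MYBL2, a repressor of them, at 36.3 to 40.6 CPM against 71.3 to 120.2 CPM. COP1, which targets light-signalling factors for degradation, was 1.61-fold higher. The anthocyanin genes UGT75C1, 5MAT, 3AT1, 3AT2 and TT19, of which 3AT1 also lay above in the 4 libraries, shared with LDOX and PAP1 the 3 lowest libraries, 5 of 7 in that list and 0 of the other 36.

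**Figure D3:**
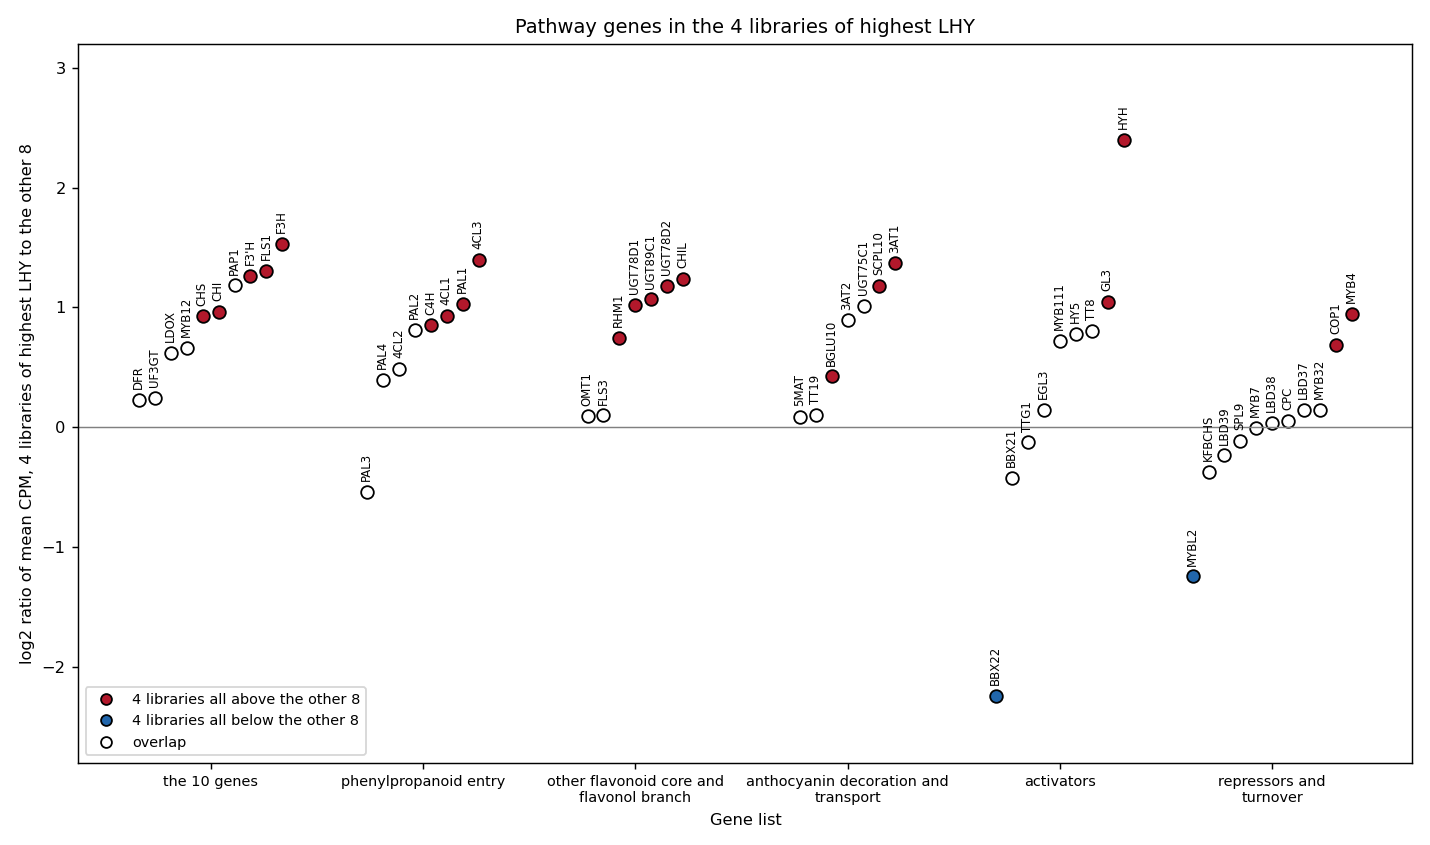
The log2 ratio of mean CPM in the 4 libraries of highest LHY to that in the other 8 (y axis) for the 10 genes and for the listed pathway genes that passed the filter (AHA10 of the proanthocyanidin branch is not drawn), by list. Red points lie above and blue points below all other 8 libraries, and the blue ones are BBX22 and MYBL2, with linear ratios of 0.212 and 0.422.

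By likeness over the 12 libraries among 10889 genes of at least 10 CPM on average, the genes outside the lists most like CHS were AT3G52360 (r = 0.94), AT5G38990 (0.94) and the glucosyltransferase gene GT72B1 (0.93). Those most like PAP1 were APR3 and APR1, which encode adenylylsulfate reductases of sulfate assimilation (0.91 and 0.90), and GDCH, a glycine decarboxylase subunit (0.89). APR3 ran from 28.2 to 111 CPM over the libraries and APR1 from 24.8 to 120.0 CPM.

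Leaving out the 4 libraries of highest LHY changed the comparison for F3H. All 4 are mutant libraries, and they held its 4 highest values, 70.1 to 83.5 CPM. Lower mutant means and a narrower spread are thus partly set by the choice of libraries. The p-values of this run do not allow for that, so it cannot decide whether F3H falls with genotype. F3H then measured 32.4 to 35.2 CPM in 3 Col-0 libraries, 19.7 and 20.7 CPM in 2 of DPB2oe1.11.5 and 21.0 and 21.1 CPM in 2 of abo4-1. The single DPB2oe12.1.5 library left held 34.4 CPM and is assumed to vary like the others. F3H fell in DPB2oe1.11.5 by 0.74 ± 0.13 on the log2 scale (edgeR adjusted p = 0.0134, 1 of 10 members with 4.44% of all genes called) and in abo4-1 by 0.69 ± 0.13 (adjusted p = 0.0386, 1 of 10 with 0.71%). In DPB2oe12.1.5 its log2 fold change was 0.02 ± 0.16 (adjusted p = 0.972, 0 of 10 with 0.225%). F3H was also lower in DPB2oe1.11.5 than in DPB2oe12.1.5, by -0.76 ± 0.17 (adjusted p = 0.0315, 1 of 10 with 5%), and it was the 1 member called in the test over 4 genotypes (adjusted p = 0.0132, 6.33% of all genes). Against abo4-1, 0 of 10 were called for DPB2oe1.11.5 (5.11%) and 0 for DPB2oe12.1.5 (0.355%). All 10 fold changes were below 0 in DPB2oe1.11.5 (median -0.59) and in abo4-1 (median -0.68), and 8 of 10 in DPB2oe12.1.5 (median -0.34). The medians over all genes in this run were 0.00, -0.00 and -0.02 in the same order. All are against the same Col-0 libraries, and the members varied together across libraries, so these signs are not independent. Leaving out mutant libraries alone also lowers the mutant means of genes that were high in them. The other pathway genes were 36 below and 9 above 0 in DPB2oe1.11.5 (median -0.32), 26 and 19 in DPB2oe12.1.5 (median -0.21), and 26 and 19 in abo4-1 (median -0.05). Among those below 0 was CHIL, singled out after its values were seen, which fell by 0.80 ± 0.14 in DPB2oe1.11.5 and 0.81 ± 0.14 in abo4-1. With all 12 libraries and log2 LHY as a covariate, a fit added after the data were seen, the F3H values were -0.40 ± 0.32 (adjusted p = 0.550) and -0.46 ± 0.32 (adjusted p = 0.726), and neither passed.

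**Figure D4:**
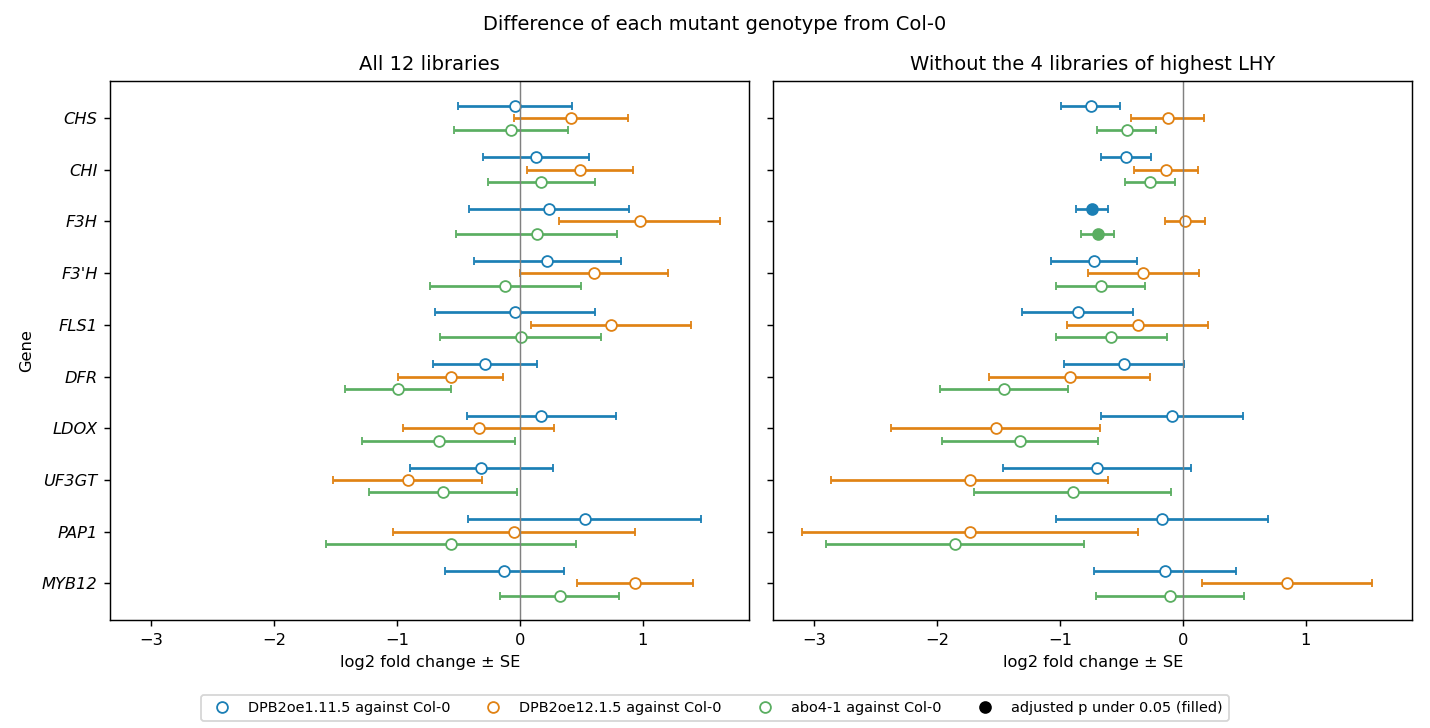
log2 fold change ± SE (x axis) of each gene in the 3 mutant genotypes against Col-0, with all 12 libraries (left) and without the 4 libraries of highest LHY (right); filled points have an adjusted p under 0.05. At right F3H is filled in DPB2oe1.11.5, at -0.74, and in abo4-1, at -0.69, while at left no point is filled.

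The 5 libraries of lowest LHY are Col-0 replicates 2 and 3, DPB2oe1.11.5 replicates 1 and 3 and abo4-1 replicate 3. This selection was made after the values were seen and was not tested. LHY ran from 3.97 to 8.96 CPM and PRR5 from 33.3 to 51.8 CPM, with abo4-1 lowest in LHY and highest in PRR5. CCA1, another morning clock gene, measured 25.7 and 28.0 CPM for Col-0, 18.1 and 20.8 for DPB2oe1.11.5 and 13.9 for abo4-1. TOC1, an evening clock gene, measured 24.5 and 29.2, 36.0 and 35.5, and 38.0 CPM in the same order. Clock transcripts were thus not matched between genotypes here, and their part in the values below was not tested. F3H measured 34.6 and 35.2 CPM for Col-0, 19.7 and 20.7 for DPB2oe1.11.5 and 21.1 for abo4-1. DFR measured 55.5 and 46.7, 32.6 and 26.9, and 22.3 CPM in the same order, and LDOX 20.9 and 24.4, 16.3 and 15.9, and 9.87 CPM. Both Col-0 libraries were above both of DPB2oe1.11.5 for 8 of the 10 genes, all but F3'H and MYB12, and below for 0, beside 29.4% above and 27.4% below over all genes. Of the other pathway genes, 31 of 43 were above and 2 below. All 5 green-tissue markers were above in Col-0 as well, and so were 3 of the 5 root markers, with 0 below. Over all 12 libraries the 5 green-tissue markers did not overlap between DPB2oe1.11.5 and Col-0 (median log2 fold change -0.59, 0 called). Of the 5 root markers 3 did not overlap, with a median of -0.70 and a range of -1.94 to 0.26. Over all genes 23% did not overlap in this comparison. The 1 root marker called was EXPA7, which fell (-1.94 ± 0.39, edgeR adjusted p = 0.0409), where 0.708% of all genes were called. The part of these markers in the result was not tested. Both Col-0 libraries were above the abo4-1 library for 8 of the 10 genes, all but CHI and MYB12, and below it for 0. Over all genes the shares were 38.4% and 38.3%. For CHS the difference was as little as 211 against 210.4 CPM. The other pathway genes were close to even there, with 20 of 43 above and 16 below.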

How the data were processed

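Raw read counts per locus were deposited for 12 stranded, single-end Ion Torrent Proton libraries (mRNA selected, sized to 230 bp). Per the file headers, reads with several best hits were removed by the authors before counting, 2.09% to 3.01% of mapped reads, and 90.3% to 95.6% of reads mapped. Reads were placed on TAIR10 per the submitters' processing notes; the aligner is not given in the sources used here. Promoter windows, gene coordinates and symbols came from RefSeq's TAIR10.1 and were read with Python 3.11.15.

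Differences were tested with edgeR 4.0.16 under R 4.3.3: filterByExpr by genotype, TMM scaling, 1 robust quasi-likelihood model of 4 genotype means over 12 libraries (biological coefficient of variation 0.226) and Benjamini-Hochberg adjustment over all 19924 loci, called under 0.05 with no fold threshold. The procedure was tested on simulated data. CPM are TMM-scaled, CPM per kb use the deposited length column, and intervals are 95%. Alternatives were other scalings, no filter, DESeq2 1.42.0, a replicate block, leaving out each library or the 4 of highest LHY and, added after the data were seen, LHY or LHY and PRR5 as covariates. No 2 libraries of a group held identical values, and r of log2 CPM within groups was 0.958 to 0.989.

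Replicate numbers were taken to pair libraries where deviations from group means correlated above 0.1 in all 3 same-numbered pairs. Only abo4-1 with DPB2oe1.11.5 met this (0.158, 0.595 and 0.399), and the labels name no shared batch. Libraries of different number also passed 0.1 there. DPB2oe1.11.5 replicate 1 with abo4-1 replicate 3 gave 0.356, and replicate 3 with replicate 1 gave 0.162. The rule therefore does not show that the numbers pair these libraries. The members and gene lists were chosen with earlier results of these data known. Named genes were the 10 members, up to 3 genes most like CHS and PAP1, and listed pathway genes; those singled out among the latter were chosen after their values were seen.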

Additional observations from a re-analysis of the deposited data

How the results depend on the processing

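The count of members called was 0 in all 6 comparisons and in the test over 4 genotypes, and it was 0 under every alternative run but 1. Leaving out the 4 libraries of highest LHY gave 1 called member, F3H, in DPB2oe1.11.5 against Col-0, in abo4-1 against Col-0, in DPB2oe1.11.5 against DPB2oe12.1.5 and in the test over 4 genotypes. F3H changed sign there, from 0.24 to -0.74 in DPB2oe1.11.5 and from 0.14 to -0.69 in abo4-1. That run has fewer libraries and leaves out mutant ones only, which held the 4 highest values of F3H. The cause was not tested. Leaving out each library in turn gave counts of 0 to 0 in all, while the count over all genes moved from 141 to between 21 and 286 in DPB2oe1.11.5 against Col-0 and from 6 to between 3 and 1119 between the overexpression lines, the highest of each without DPB2oe1.11.5 replicate 2. It moved from 85 to 15 to 95 in DPB2oe12.1.5 and from 156 to 65 to 94 in abo4-1 against Col-0, and against abo4-1 from 327 to 79 to 577 in DPB2oe1.11.5 and from 142 to 49 to 207 in DPB2oe12.1.5. With the replicate number as a block, 0 members were called in every comparison. C4H was called by edgeR in DPB2oe12.1.5 against Col-0 (log2 fold change 0.97 ± 0.18, adjusted p = 0.0283). It was the 1 called of 43 other pathway genes, and the share over all genes in that run is not given here. Scaling by library size alone moved the median of all genes by 0.26 log2 units in DPB2oe1.11.5 against Col-0, and by 0.16 and 0.22 in DPB2oe1.11.5 against DPB2oe12.1.5 and abo4-1. With 5 to 126 reads per library for PAP1 and 10 to 31 for MYB12, relative counting error is larger for these, summed over libraries, than for the other members.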
